A study of Mus musculus with 4 samples.

Results

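The cycling pallial progenitors of the E18.5 mouse cortex were 296 of 6562 sequenced cells. They were chosen from the single-cell table by 5 steps of counting unique molecular identifiers (UMIs), the tags that mark each captured RNA molecule once. A cell had at least 1 UMI of Top2a, at least 1 UMI of Eomes, Neurog2 or Pax6, none of Dlx1, none of Dlx2, and a barcode that did not occur in all 4 libraries. Sorted CD24+ CD45- cells came from the cortex of 2 Setd5+/+ and 2 Setd5+/- C57BL/6J fetuses, each of which gave 1 10x Genomics 3′ v2 library. CD24 marks neurons and CD45 marks blood cells, and Setd5+/- fetuses carried 1 copy of the Setd5 GFP allele, treated in the study as a heterozygous knockout in the whole animal. The wild type libraries are called WT3 and WT6 and the Setd5+/- libraries Het5 and Het9, after the prefixes of the cell names. The question the design asks is whether losing 1 copy of Setd5, which encodes a SET-domain chromatin protein, changes the cells of the developing cortex. The labels give no sex. In the progenitors the X-inactivation RNA Xist was at 22.0 (WT3), 19.8 (WT6), 0 (Het5) and 0.0217 (Het9) counts per 10000 UMIs, so sex and genotype cannot be told apart in any comparison of genotypes below.

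The pallium is the dorsal part of the embryonic forebrain, and its progenitors make the excitatory neurons of the cortex. Radial glia are the stem cells that line the ventricle. They carry Pax6 and divide to renew themselves or to give intermediate progenitors, which switch on Neurog2 and then Eomes and divide again to give neurons. Progenitors of the neighbouring subpallium, which make inhibitory neurons, carry Dlx1 and Dlx2 instead. Top2a encodes the topoisomerase that untangles DNA before chromosomes separate, and its RNA builds up from S phase to mitosis, so the choice of cells leaves out those in early G1. At E18.5 the production of cortical neurons is nearly over and that of glia is beginning.

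The 4 genes whose presence chose the cells are given here as a description. Top2a (GRCm38 chromosome 11, 98992943 to 99024189) averaged 6.66, 6.61, 6.47 and 5.36 counts per 10000 in WT3, WT6, Het5 and Het9. Neurog2 (chromosome 3, 127633135 to 127635631), a proneural transcription factor, averaged 3.36, 4.14, 3.52 and 5.31. Eomes (chromosome 9, 118478212 to 118486132), the T-box factor of intermediate progenitors, averaged 3.12, 1.97, 2.58 and 3.0. Pax6 (chromosome 2, 105668900 to 105697364), the paired-box factor of radial glia, averaged 2.35, 3.16, 2.59 and 2.94. Pax6 had a UMI in 234 of the 296 cells, Neurog2 in 165 and Eomes in 133. All 3 genes were found together in 74 cells, Pax6 alone in 109, Neurog2 with Pax6 in 42, Eomes with Neurog2 in 37, Eomes alone in 13, Neurog2 alone in 12 and Eomes with Pax6 in 9. The most frequent states were thus Pax6 by itself and the 3 factors at once. Many cells lay near the edge of the choice. Exactly 1 Top2a UMI was found in 120 of them and 2 or more in 176, with a median of 2 and a maximum of 33, and 47 had a single UMI over the 3 pallial genes. On the other side, 37 cells with Top2a and a pallial gene were left out for 1 UMI of Dlx1 or Dlx2, 195 were left out for 2 or more, and 4 were left out for a barcode found in all 4 libraries.

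Genes that had no part in the choice were read to check the label. Emx1, a homeobox gene of the cortical pallium, was found in 181 of 296 cells (61.1%, exact 95% binomial interval 55.3 to 66.7, counting error only), against 5.56% of 846 cycling cells with Dlx1 or Dlx2. Lhx2, which sets cortical identity in progenitors, was found in 90.5% against 31.8%. Of cycling genes, Mki67, a marker of proliferation, was found in 53.4% of the progenitors, 73.8% of the cycling Dlx-positive cells and 5.66% of 2048 non-cycling pallial cells, which met the rule but for having no Top2a UMI (35.2%, 49.5% and 3.08% thinned to 3000 UMIs). Pcna, the clamp of the replication fork, was found in 62.8%, 63.8% and 20.6% (43.7%, 47.2% and 11.2% thinned), so part of the cells without a Top2a UMI carried a replication gene. Subpallial genes were rare. Any of Dlx5, Dlx6, Dlx6os1, Gad1, Gad2, Sp9 and Gsx2 was found in 19.3% of the progenitors, in 15.4% of the non-cycling pallial cells and in 89.4% of the cycling Dlx-positive cells. Thinned to 3000 UMIs per cell, which left out 3, 38 and 15 shallower cells, the shares were 9.22%, 8.06% and 83.3%. The median depth was 7937.5 UMIs in the progenitors, 6109.5 in the non-cycling pallial cells, 7107.5 in the cycling Dlx-positive cells and 5730 in all cells. The sort marker Cd24a was found in 244 of 296 progenitors, and Ptprc, which encodes CD45, in 0 of 296, which allows a share of cells with a UMI of up to 1.01% (3 counts of 296, counting error only). Scrublet called 3 progenitors doublets, and 1 shared its barcode with a cell of another library. Hbb-bs, a globin of red blood cells, had a UMI in 88.2% of the progenitors and 86.4% of the non-cycling pallial cells, so a UMI does not by itself show that a cell made the RNA. The summed level of 5 red cell genes was 7.48, 5.75, 4.75 and 12.8 counts per 10000 in the progenitors of the 4 libraries, against 49.4, 5.83, 4.65 and 72.6 in the cycling Dlx-positive cells. Its part in the comparisons was not tested. The 8 immune and 7 vascular genes summed to at most 0.150 and 0.183 in any library, and 9 genes of Cajal-Retzius cells and the cortical hem to at most 0.660.

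The progenitors made up 51 of 1453 cells of WT3 (3.51%, exact 95% binomial interval 2.62 to 4.59) and 84 of 1954 of WT6 (4.30%, 3.44 to 5.29). They made up 115 of 1710 cells of Het5 (6.73%, 5.58 to 8.02) and 46 of 1445 of Het9 (3.18%, 2.34 to 4.22). Het5 had the highest share and Het9 the lowest, so the genotypes overlapped. The Setd5+/- mean was 1.05 percentage points above the Setd5+/+ mean (exact two-sided permutation test, p = 1, where 2 libraries against 2 cannot give a p under 0.333). Without Het5 the difference was -0.721 points and without Het9 it was 2.82, so its direction rested on 1 library. With the rule applied after thinning to 3000 UMIs the shares were 1.93, 2.80, 4.56 and 2.04% in WT3, WT6, Het5 and Het9, which again overlapped, with WT3 lowest.

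**Figure D1:**
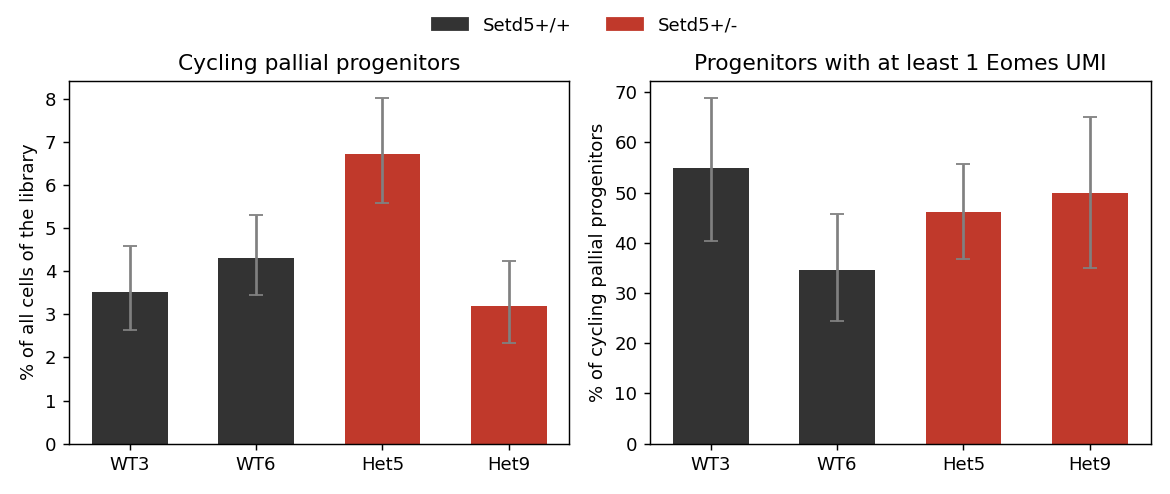
Left, percent of the cells of each library that were cycling pallial progenitors. Right, percent of those progenitors with at least 1 Eomes UMI. Bars are single libraries, one fetus each, and error bars are exact 95% binomial intervals of counting. The genotypes overlap in both panels, with Het5 highest (6.73%) and Het9 lowest on the left, and WT3 highest (54.9%) and WT6 lowest (34.5%) on the right.

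Cell cycle genes set the progenitors apart from pallial cells without Top2a, as the choice by Top2a fixes, so these values are a description. Of 8144 genes, 258 (3.17%) were at least 2-fold higher in the progenitors of every library and 45 (0.553%) at least 2-fold lower. All 42 G2 and mitosis genes that reached a mean of 0.1 counts per 10000, of 44 listed, were among the higher ones, and so were 33 of 38 S-phase genes. The leading genes after Top2a were 2810417H13Rik, Spc25, Hist1h2ap, Rrm2, Cdk1, Pbk, Nusap1, Prc1 and Birc5. Spc25 belongs to the kinetochore complex that holds spindle microtubules, and it averaged 2.14, 2.56, 2.69 and 1.69 in the progenitors against a mean of 0.0695 in the non-cycling cells. Rrm2, the ribonucleotide reductase subunit that supplies nucleotides for replication, averaged 3.86, 5.11, 4.0 and 4.89 against 0.291. Cdk1, the kinase that drives entry into mitosis, averaged 2.06, 1.99, 2.18 and 1.57 against 0.0818. Hmgb2, a chromatin protein of dividing cells, was the most abundant of the G2 and mitosis genes at 24.7, 26.5, 28.1 and 21.9. Dut, which keeps uracil out of DNA, and the histone chaperone Nasp were the most abundant S-phase genes, with means from 5.02 to 5.90 and from 4.05 to 5.32. Each of these genes was high in all 4 libraries, and none was carried by a single fetus.

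The promoters of these genes were read because the genes moved together. Of the genes in the table, 11950 had a 300-base promoter (250 bases before the start, 50 after) in the RefSeq table of build GRCm38.p6. The cell cycle genes homology region (CHR), the element TTTGAA or TTCGAA read on both strands, is bound by complexes that hold mitotic genes silent outside G2 and mitosis. It was found in 29 of 38 promoters of G2 and mitosis genes (76.3%, Top2a counted), in 5 of 27 promoters of S-phase genes and in 13.8% of all 11950. The E2F element, searched as TTTGGCGC, TTTCGCGC, TTTCCCGC and TTTGCCGC on both strands, was found in 9 of 27 S-phase promoters (33.3%), 2.63% of those of G2 and mitosis genes and 3.8% of all. E2F factors switch on replication genes at the end of G1. The CCAAT box, read on both strands, was found in 78.9% of G2 and mitosis promoters, 63.0% of S-phase promoters, 60.0% of 20 radial glia promoters and 38.2% of all. A match is a description of letters in this window and not a bound site. For each list the 2 genes of largest fold over non-cycling pallial cells whose promoter held the element are shown with it in capitals, read 5′ to 3′ on the strand of the gene. Cdk1 (chr10:69352863-69353162, minus strand) and Cenpf (chr1:189688037-189688336, minus strand), which encodes a kinetochore protein, show the CHR. Clspn (chr4:126556730-126557029, plus strand), which encodes a replication checkpoint adaptor, and Hells (chr19:38930740-38931039, plus strand), which encodes a chromatin remodeler, show the E2F element.
Cdk1: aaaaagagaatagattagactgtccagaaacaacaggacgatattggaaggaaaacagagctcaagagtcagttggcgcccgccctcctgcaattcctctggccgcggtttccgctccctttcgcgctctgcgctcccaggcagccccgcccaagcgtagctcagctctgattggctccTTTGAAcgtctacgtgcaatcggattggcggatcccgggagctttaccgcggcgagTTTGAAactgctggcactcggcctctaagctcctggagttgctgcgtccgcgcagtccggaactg
Cenpf: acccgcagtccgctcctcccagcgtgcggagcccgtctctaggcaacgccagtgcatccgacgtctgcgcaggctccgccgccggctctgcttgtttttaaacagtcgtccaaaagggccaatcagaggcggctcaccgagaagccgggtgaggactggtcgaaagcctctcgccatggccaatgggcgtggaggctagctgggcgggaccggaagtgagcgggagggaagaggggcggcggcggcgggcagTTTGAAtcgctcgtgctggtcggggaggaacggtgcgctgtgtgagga
Clspn: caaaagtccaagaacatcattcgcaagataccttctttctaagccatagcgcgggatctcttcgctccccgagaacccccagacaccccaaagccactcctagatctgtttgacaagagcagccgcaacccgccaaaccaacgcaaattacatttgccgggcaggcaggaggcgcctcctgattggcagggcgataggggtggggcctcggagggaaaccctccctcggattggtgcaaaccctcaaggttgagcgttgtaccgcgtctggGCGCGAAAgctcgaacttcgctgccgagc
Hells: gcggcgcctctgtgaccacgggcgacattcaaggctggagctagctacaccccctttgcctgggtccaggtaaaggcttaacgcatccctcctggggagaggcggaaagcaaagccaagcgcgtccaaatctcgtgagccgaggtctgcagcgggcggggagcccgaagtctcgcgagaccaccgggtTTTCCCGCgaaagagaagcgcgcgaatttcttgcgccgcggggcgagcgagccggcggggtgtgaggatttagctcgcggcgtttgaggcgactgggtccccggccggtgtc

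In Cdk1 the CHR occurs 2 times on the gene strand. The Cdk1 promoter also holds TTTCGCGC, left in lower case, and is the 1 of 38 G2 and mitosis promoters with an E2F match. In Clspn the E2F element was met as GCGCGAAA, the reverse complement of TTTCGCGC. Cenpf averaged 3.78, 3.37, 3.53 and 2.40 counts per 10000 in the progenitors of WT3, WT6, Het5 and Het9, Clspn 1.19, 1.14, 0.981 and 1.04, and Hells 1.65, 1.72, 1.68 and 1.66. Hells differed least between fetuses of these genes.

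S-phase genes took 0.542, 0.618, 0.550 and 0.554% of the UMIs of the progenitors in WT3, WT6, Het5 and Het9. G2 and mitosis genes without Top2a took 0.945, 0.917, 0.984 and 0.731%. Het9 was the low library for the second list, and the genotypes overlapped for both. The Setd5+/- mean minus the Setd5+/+ mean was -0.0283 points for S phase and -0.0738 points for G2 and mitosis (exact two-sided permutation tests, p = 1 for each). Both changed sign without 1 library, the first to 0.010 without WT6 and the second to 0.0526 without Het9. In 149 of 296 cells the G2 and mitosis list had more UMIs than the S-phase list and in 143 fewer, and in 24 the counts lay within 2 UMIs of each other, so a split into phases would rest on small counts in those. The cycling Dlx-positive cells held more of the G2 and mitosis list, with summed levels from 149 to 166 counts per 10000 against 73.1 to 98.4 in the progenitors. Top2a, which the rule used for both classes, is left out of this list.

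Of 15 genes of G1/S control measured, which carry cells from G1 into S phase, 0 were at least 2-fold higher and 2 at least 2-fold lower in every library than in the cycling Dlx-positive cells, with a median log2 ratio of -0.16. Over all 7952 genes 2.02% were higher and 0.981% lower. Ccnd2, a D-type cyclin, averaged 10.9, 8.90, 8.33 and 7.91 counts per 10000 in the pallial progenitors of WT3, WT6, Het5 and Het9. It averaged 31.0, 34.0, 36.5 and 45.2 in the cycling Dlx-positive cells. The 2 classes did not overlap in any library, and the mean was 4 times lower in the pallial cells, a log2 ratio of -2.01. Cdk4, the kinase that D cyclins switch on, was at 10.4, 10.3, 9.90 and 9.92 in the progenitors with a mean of 11.8 in the Dlx-positive cells, a log2 ratio of -0.22. Cdk6, a close relative of it, had means of 1.75 and 1.07, and Trp53, the tumour suppressor, 1.84 and 1.78. The choice of cells used Dlx1, Dlx2 and the pallial genes, and every gene of the cells counts as used with them, so no test was made of these levels.

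Against the cycling Dlx-positive cells, 161 of 7952 genes (2.02%) were at least 2-fold higher in the pallial progenitors of every library and 78 (0.981%) at least 2-fold lower. After Neurog2 and Eomes, which the rule used, the leading genes were Aldoc, Dmrta2, Emx1, Ccdc80, Lhx2, Fezf2, Nrn1 and Sstr2. Dmrta2, a zinc-finger factor needed for the dorsal forebrain, averaged 1.36, 1.28, 1.39 and 1.58 in the progenitors against a mean of 0.0725. Emx1 averaged 1.83, 1.51, 1.83 and 1.23 against 0.110, and Fezf2, a factor of deep-layer neurons and their progenitors, 0.866, 0.986, 0.724 and 0.902 against 0.0561. These 3 transcription factors were close to absent in the Dlx-positive cells of the same libraries. Of the radial glia list, 12 of 21 genes measured were among the higher ones and none among the lower. Of the subpallial list, 12 of 18 were among the lower ones.

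**Figure D2:**
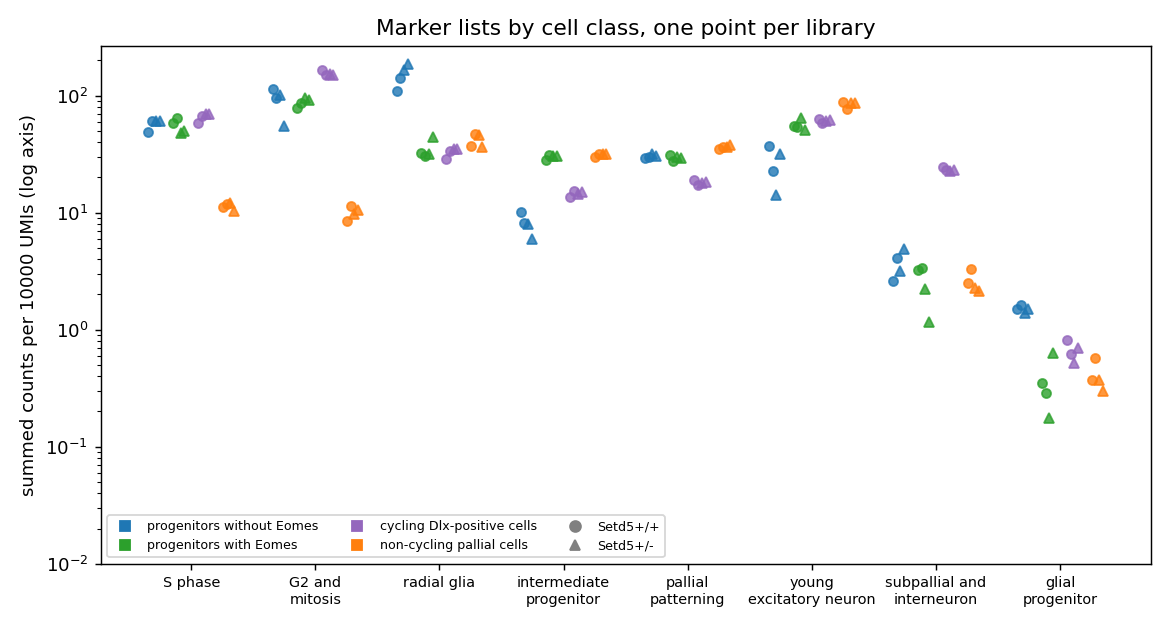
Summed counts per 10000 UMIs (log axis) of 8 marker lists, without the genes of the rule, in 4 classes of cells. Each point is 1 library, circles are Setd5+/+ and triangles Setd5+/-. The cell cycle lists are high in both groups of progenitors and low in non-cycling pallial cells, the radial glia list is highest in progenitors without Eomes (110 to 187), and the intermediate progenitor list separates progenitors with Eomes (27.9 to 31.3) from those without (5.99 to 10.2).

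The progenitors were not of 1 kind. Split by Eomes, 133 cells with it and 163 without it differed across many genes, and since Eomes helped to choose the cells these values too are a description. Of 8093 genes, 940 (11.6%) were higher in every library in the cells with Eomes and 1325 (16.4%) lower. Of the radial glia list, 21 of 22 genes were lower in every library in the cells with Eomes, with a median log2 ratio of -2.13 against -0.054 over all genes. Of the intermediate progenitor list, 18 of 19 genes measured were higher, with a median of 1.72. All cells of both kinds were chosen for Top2a, and the cell cycle lists had median log2 ratios of -0.09 for S phase and -0.07 for G2 and mitosis. The libraries went both ways. The G2 and mitosis list was higher with Eomes in Het9 (91.2 with and 55.0 without) and lower in WT3 (78.5 and 114), WT6 (86.3 and 94.5) and Het5 (95.5 and 101). The S-phase list was higher with Eomes in both Setd5+/+ libraries (58.3 and 49.2 in WT3, 63.8 and 60.8 in WT6) and lower in both Setd5+/- libraries (47.6 and 61.2 in Het5, 49.9 and 60.8 in Het9), a difference between genotypes that was not tested. The median depth was 7159 UMIs with Eomes and 8303 without.

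Cells with Eomes were led by genes of neurogenic commitment. Gadd45g, a growth arrest gene of newly committed progenitors, had a mean of 3.83 counts per 10000 with Eomes and 0.540 without. Insm1, a zinc-finger factor that drives the birth of intermediate progenitors, had 2.87 and 0.441. The RNA-binding protein genes Elavl4 and Elavl2 had 5.53 and 0.910, and 6.33 and 1.29. Mfng, which modifies Notch receptors, had 2.04 and 0.357, and Neurod1, a neuronal bHLH factor, 1.30 and 0.207. Lzts1 (1.17 and 0.165) and Myt1 (0.587 and 0.0536) completed the leading genes. Neurod6, a factor of young excitatory neurons, was found in 71.4% of the cells with Eomes and 26.4% of those without, or 56.9% and 14.7% after thinning to 3000 UMIs, while 15% of the cycling Dlx-positive cells had a UMI of it (9.15% thinned).

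Cells without Eomes carried the genes of radial glia. Fabp7, the brain lipid-binding protein of radial glia, had a mean of 46.3 counts per 10000 without Eomes and 6.00 with it. Dbi, which binds acyl-CoA, had 36.1 and 12.6, Vim, the intermediate filament vimentin, 13.7 and 5.79, and the metallothionein gene Mt3 7.19 and 0.690. Aldoc, a glycolytic enzyme of radial glia and astrocytes, had 5.43 and 0.480, and Ptprz1, a receptor phosphatase, 4.62 and 0.532. Rgcc, Ccdc80, Clu, Tagln2, Scrg1 and Mt1 were the other leading genes of this side. Of 11 Notch genes measured, 6 were lower and 4 higher with Eomes in every library. Hes5 was found in 52.1% of the cells without Eomes and 9.02% of those with it (28.8% and 3.85% thinned), against 8.63% of the cycling Dlx-positive cells (4.93% thinned), and Hes1 in 49.7% and 9.77%. Hes6, which opposes Hes1, went the other way with means of 1.19 without Eomes and 4.21 with it. Of 5 dissociation stress genes measured, Jun was lower with Eomes in every library (means of 0.306 with and 2.51 without), Btg2 was higher (1.82 and 0.789), and the median log2 ratio was 0.20.

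**Figure D3:**
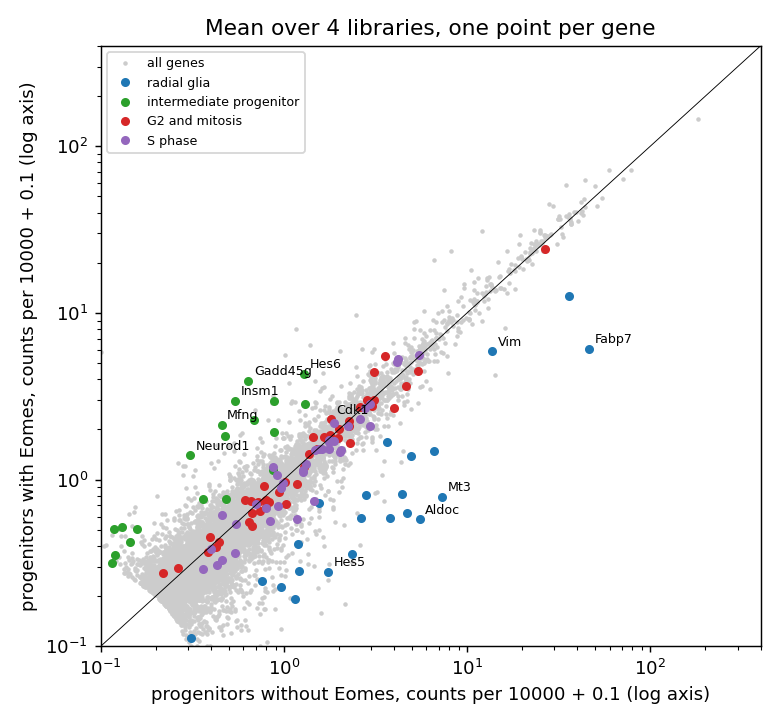
Mean counts per 10000 plus 0.1 over the 4 libraries (log axes) of each gene in progenitors without Eomes (x) and with Eomes (y). Colored points are genes of 4 marker lists without Eomes, Neurog2 and Pax6, and the line marks equal levels. Radial glia genes lie below the line (Fabp7 46.3 and 6.00), intermediate progenitor genes above it (Insm1 0.441 and 2.87), and the cell cycle lists on both sides of it.

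Glial genes were sparse. The list of 11 glial progenitor genes summed to 0.868, 1.17, 0.827 and 1.07 counts per 10000 in WT3, WT6, Het5 and Het9. Olig1 was found in 12 of 296 cells (4.05%) and Olig2 in 21 (7.09%), against 0.537% and 1.07% of the non-cycling pallial cells and 3.31% and 19.9% of the cycling Dlx-positive cells. Thinned to 3000 UMIs, the shares were 1.37% and 4.44%, against 0.448% and 0.647%, and 1.2% and 11.2%. In the cells without Eomes the list summed to between 1.38 and 1.63, and in those with Eomes to between 0.176 and 0.629, so the groups did not overlap in any library. Hopx, a marker of outer radial glia in larger brains, averaged 0.771, 0.147, 0.275 and 0.797. It was high in 1 library of each genotype.

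Eomes had a UMI in 28 of 51 progenitors of WT3 (54.9%), 29 of 84 of WT6 (34.5%), 53 of 115 of Het5 (46.1%) and 23 of 46 of Het9. WT3 was the highest and WT6 the lowest, and the Setd5+/- libraries lay between them. Eomes helped to choose the cells, so the difference in means, 3.33 percentage points, is a description. It was -6.86 points without WT6 and 13.5 without WT3. With the rule applied after thinning to 3000 UMIs the shares were 46.2, 42.0, 41.7 and 37.0% in WT3, WT6, Het5 and Het9, a difference of -4.73 points with Setd5+/- lower and no overlap, over 26 to 72 cells per library.

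Setd5 (chromosome 6, 113077365 to 113153435) had a mean of 1.21 counts per 10000 in WT3, 1.14 in WT6, 0.50 in Het5 and 0.593 in Het9. The genotypes did not overlap, and Setd5+/- was the lower. The log2 fold change, Setd5+/- over Setd5+/+, was -0.98 (SE 0.234) and did not pass the threshold (adjusted p = 0.116, limma with Benjamini-Hochberg adjustment over 8129 genes). It was -0.85 in the cycling Dlx-positive cells (adjusted p = 0.0233) and -0.94 in the non-cycling pallial cells (adjusted p = 0.00065), where limma called it among 6 of 7571 genes (0.0792%, with 4.16% at an unadjusted p under 0.05) and 8 of 7906 (0.101%, with 4.3%). In tests of the difference between these changes the progenitors did not stand apart (adjusted p = 0.999 against each class). Over 15 alternatives its log2 fold change in the progenitors ran from -1.47 to -0.42, and 3 called it. The 3′ reads of this kit need not follow the part of the gene that the GFP allele disrupts. Of 11 other genes listed as partners of Setd5 in the NCoR, HDAC3 and PAF1 complexes, 0 were called and 0 reached an unadjusted p under 0.05, against 0.0861% and 4.6% of all 8129 genes, with Ncor1 the highest at 2.43, 2.92, 2.73 and 3.34.

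Across all genes, limma called 7 of 8129 (0.0861%) between the genotypes in the progenitors, 4 higher (0.0492%) and 3 lower (0.0369%) in Setd5+/-, and 374 (4.6%) had an unadjusted p under 0.05. Of the 7, 5 have a position on the sex chromosomes in the annotation used. Xist and Tsix, the RNAs of X inactivation that overlap on opposite strands so that their reads may not be told apart, were lower in Setd5+/-, and Tsix averaged 1.02, 0.830, 0 and 0.0254. The Y-linked genes Ddx3y (0, 0, 0.615 and 0.375), Eif2s3y (0, 0, 0.450 and 0.331) and Uty (0, 0, 0.256 and 0.302) were higher. They had no UMI in the progenitors of WT3 and WT6 and were detected in both Setd5+/- libraries. Erdr1 has no position in that annotation, so whether it lies on a sex chromosome was not determined. It was at 1.94, 4.75, 1.31 and 0.687, with a log2 fold change of -1.58 (SE 0.243, adjusted p = 0.000129). Its level varied more between the Setd5+/+ libraries than between the Setd5+/- ones. The log2 fold change was -0.95 without WT6 and -2.20 without WT3. The call was lost without Het9 (-1.16) and after thinning to 3000 UMIs (-1.12), and 13 of 15 alternatives called it. Xist was called in 15 of them, Tsix in 14, Ddx3y in 13, Eif2s3y in 11 and Uty in 8.

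Fabp7 (chromosome 10, 57784881 to 57788450) was the gene outside the sex chromosomes with a position that was called. WT3 and WT6 had 15.3 and 27.8 counts per 10000 of it, Het5 and Het9 33.1 and 34.7. The Setd5+/- libraries lay above both Setd5+/+ libraries, and WT3 was far below the other 3. The log2 fold change was 0.71 (SE 0.118, adjusted p = 0.000391 by limma with Benjamini-Hochberg adjustment). This SE draws on the spread of other genes too and not on that of Fabp7 alone, whose Setd5+/+ libraries were at 15.3 and 27.8. The share of cells without Eomes, which carry most of the Fabp7, was lowest in WT3. In the cells without Eomes Fabp7 averaged 27.5, 40.5, 55.2 and 61.9, and in those with Eomes 5.39, 3.76, 7.34 and 7.50. Within each kind of progenitor both Setd5+/- libraries were above both Setd5+/+ libraries. The 2 kinds come from the same libraries, and the part of their mix in the change was not tested. With the 2 kinds weighted alike in every library the log2 fold change was 0.78 (adjusted p = 2.6e-13, with a range of 5.96e-31 to 1 over the 15 alternatives). The call was lost without WT3 (0.28, adjusted p = 0.315), without Het5 (0.74, adjusted p = 0.322) and without Het9 (0.68, adjusted p = 1), where a genotype had a single fetus that is assumed to vary like the other genotype. In the cycling Dlx-positive cells Fabp7 averaged 3.82, 4.52, 6.26 and 6.84, a log2 fold change of 0.64 (adjusted p = 0.0287), and in the non-cycling pallial cells 9.27, 11.1, 12.3 and 8.07, a log2 fold change of -0.02 (adjusted p = 0.996). The change in the progenitors minus that in the non-cycling cells was 0.73 (SE 0.325, adjusted p = 0.968), so the 2 changes were not shown to differ.

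**Figure D4:**
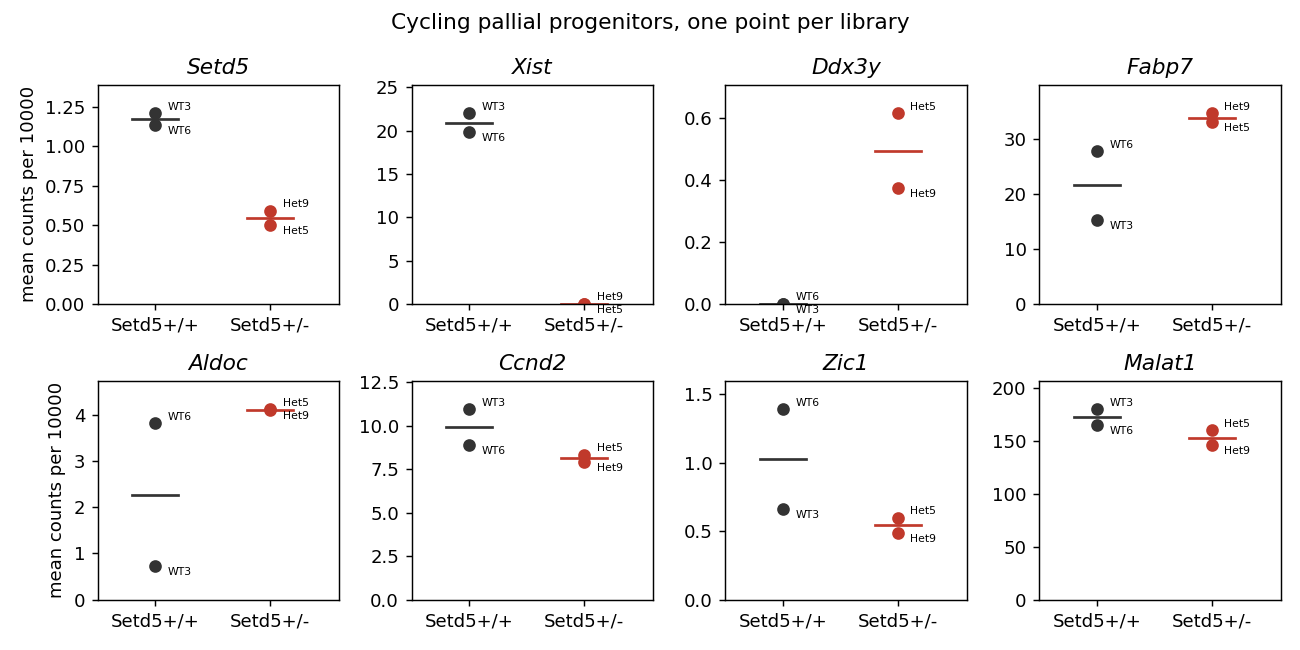
Mean counts per 10000 UMIs (linear axes from 0) of 8 genes in the cycling pallial progenitors. Each point is the mean over the progenitors of 1 library, and the short lines are genotype means. Setd5 is lower and Fabp7 higher in both Setd5+/- libraries, Xist and Ddx3y separate the libraries by sex chromosome, Aldoc is low in WT3 alone (0.718), and Ccnd2, Zic1 and Malat1 are lower in both Setd5+/- libraries without passing the threshold.

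The 10 genes of lowest p among those not called and not on the sex chromosomes were Aldoc, Setd5, Sox4, Malat1, Olig1, Gm8797, Mef2a, Fmn2, Fgfbp3 and Ptn, and they are given as values. Aldoc averaged 0.718, 3.82, 4.12 and 4.10 (log2 fold change 1.23, adjusted p = 0.10). WT3, which had the lowest share of cells without Eomes, stood alone there, and the part of that share was not tested. Without WT3 the log2 fold change was 0.10 and without WT6 it was 2.36, and Aldoc was called in 6 of 15 alternatives. In the cells without Eomes, which carry most of it, Aldoc averaged 1.45, 5.49, 7.02 and 7.74. Sox4, a factor of new neurons, averaged 11.7, 14.1, 15.1 and 19.2 (0.41, adjusted p = 0.201). Malat1, a nuclear long RNA, averaged 180, 165, 160 and 146 (-0.17, adjusted p = 0.394). Ptn, a growth factor of radial glia, averaged 6.25, 10.1, 9.93 and 12.0 (0.45, adjusted p = 0.665), and Fgfbp3, an FGF-binding protein, 0.635, 0.765, 1.24 and 1.31 (0.79, adjusted p = 0.509). The log2 fold change of Ptn ran from 0.10 to 0.79 over 15 alternatives. Fgfbp3 averaged 1.20, 1.12, 2.19 and 2.16 in the cells without Eomes. In Ptn the genotypes overlapped, and in Sox4, Malat1 and Fgfbp3 they did not. Olig1 (0.235, 0.297, 0.0363 and 0.0513), Mef2a (0.300, 0.325, 0.123 and 0.0273) and Fmn2 (0.265, 0.375, 0.0938 and 0.0590) were low and lower in Setd5+/-. Gm8797 was low in Het9 (0.174, against 1.76 to 2.06 in the other libraries). Of these genes Gm8797 was called in 6 of 15 alternatives, Malat1 in 4, Setd5 in 3, Ptn in 2 and Sox4 in 1.

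Of the 22 radial glia genes, 1 (Fabp7) was called, 18 had a log2 fold change above 0 with a median of 0.27 against -0.0050 over all genes, and 8 were higher with an unadjusted p under 0.05, against 2.3% of all genes. Dbi averaged 20.0, 25.5, 26.0 and 29.6 (0.30), Mt3 2.54, 4.88, 4.19 and 5.23 (0.40) and Hes5 0.537, 1.0, 1.01 and 1.34 (0.59). WT3 had the lowest value of each and also the lowest share of cells without Eomes, and a link between them was not tested. The list summed to 67.3, 104, 105 and 116 in the 4 libraries. In the cells without Eomes it summed to 110, 143, 167 and 187, and in those with Eomes to 32.2, 30.3, 31.8 and 44.3. The genotypes did not overlap in the first group and did in the second.

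Of the 44 G2 and mitosis genes, 0 were called. Their log2 fold changes were below 0 for 33, with a median of -0.13, and 7 were lower with an unadjusted p under 0.05, against 2.3% of all genes. Cks2, which binds Cdk1, averaged 5.6, 5.56, 5.22 and 3.16 (-0.45, adjusted p = 0.93), and Birc5, the survivin gene, 3.39, 3.01, 3.04 and 1.81 (-0.43, adjusted p = 0.995). Both were lowest in Het9, as was the whole list. In the cells with Eomes the list summed to 78.5, 86.3, 95.5 and 91.2 in WT3, WT6, Het5 and Het9, with both Setd5+/- libraries higher, and in those without Eomes to 114, 94.5, 101 and 55.0, where the genotypes overlapped and Het9 was lowest. Of the 38 S-phase genes 0 were called and 0 reached an unadjusted p under 0.05, with a median of -0.02. In the cells with Eomes the S-phase list summed to 58.3, 63.8, 47.6 and 49.9 in WT3, WT6, Het5 and Het9, lower in Setd5+/- with no overlap. In those without Eomes it summed to 49.2, 60.8, 61.2 and 60.8, where WT3 was low and WT6 and Het9 were close to equal. Of the other lists, 0 of 19 intermediate progenitor genes (median 0.20), 0 of 13 pallial patterning genes (0.07), 0 of 16 young excitatory neuron genes (-0.10), 0 of 12 Notch genes (0.17) and 0 of 15 genes of G1/S control (-0.02) were called. At an unadjusted p under 0.05 these 5 lists had 1, 2, 1, 1 and 2 genes, higher and lower together, against 4.6% of all genes. Libraries of the genotypes did not overlap for 2637 of all 8129 genes (32.4%, 15.3% with Setd5+/- higher and 17.1% lower), and for 8 of the 22 radial glia genes and 6 of the 44 G2 and mitosis genes.

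**Figure D5:**
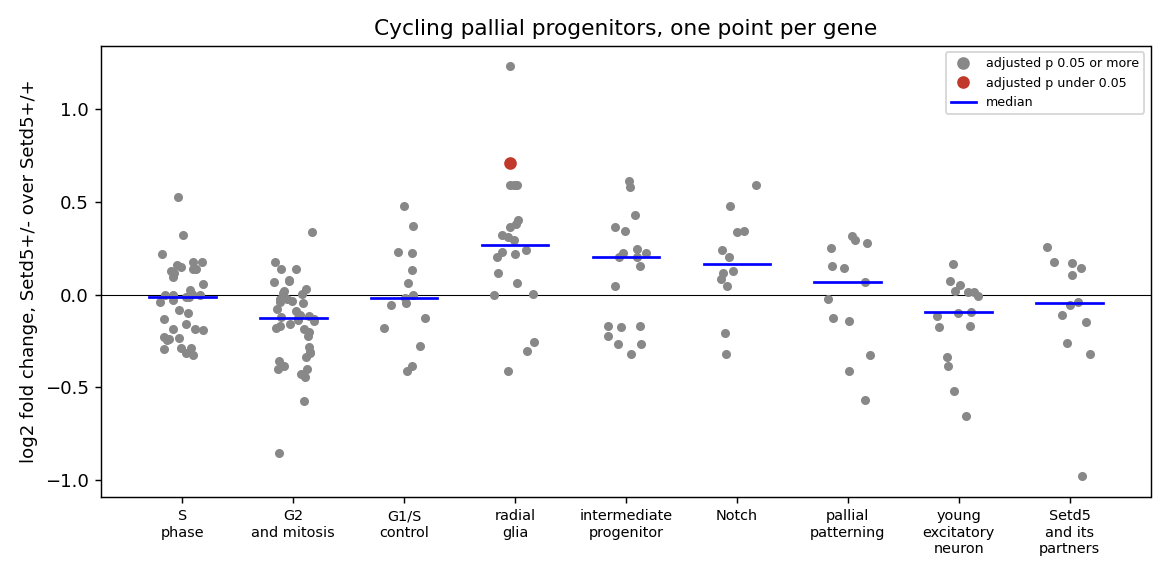
Log2 fold change, Setd5+/- over Setd5+/+, in the cycling pallial progenitors for the genes of 9 lists without the genes of the rule. Each point is a gene, blue lines are list medians, and red marks an adjusted p under 0.05 (limma, Benjamini-Hochberg). Fabp7 at 0.71 is the red point, in the radial glia list (median 0.27), and Setd5 at -0.98 is the lowest point of its list.

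The study named 14 genes for a Dlx-positive cluster of these same libraries, so the list is not independent evidence of a direction. In the pallial progenitors 11 of them were measured and 0 were called, against 0.0861% of all genes, and 4 were lower at an unadjusted p under 0.05, against 2.3% of all genes. Ccnd2, given above by library, had a log2 fold change of -0.28 (SE 0.111, adjusted p = 0.995) against 0.32 in the cycling Dlx-positive cells (adjusted p = 0.996). The difference between these changes was -0.60 (SE 0.320, adjusted p = 0.991 by limma), so opposite directions were not shown. The Ccnd2 change in the progenitors ran from -0.43 to -0.089 over 15 alternatives. Cdca7, a chromatin factor of cycling cells, averaged 1.84, 1.80, 1.45 and 1.24 (-0.41). Zic1, a zinc-finger factor, averaged 0.665, 1.39, 0.600 and 0.487 (-0.74, adjusted p = 0.995), and its neighbour Zic4 0.335, 0.629, 0.349 and 0.242 (-0.52). Over 15 alternatives Zic1 ran from -1.22 to -0.20, and 1 called it. Abracl averaged 7.04, 4.31, 5.87 and 5.54 (0.05), Nr2f1, an orphan nuclear receptor, 4.48, 3.56, 4.17 and 4.21 (0.07), Nnat 7.33, 5.25, 6.97 and 7.51 (0.22), and the CDK inhibitor gene Cdkn1c 0.969, 0.580, 0.701 and 0.606 (-0.18). The direction of these 4 and of Zic4 changed under some alternatives. Cadm1, an adhesion gene, averaged 1.32, 0.995, 0.865 and 0.780 (-0.44), and Efna5, an ephrin, 0.133, 0.259, 0.120 and 0.0756 (-0.56). Fgf15, Pnoc and Kitl were under 0.11 in every library and were not tested.

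In the tests of the difference between genotype effects, limma called 0 of 7952 genes against the cycling Dlx-positive cells and 0 of 8144 against the non-cycling pallial cells, with 313 (3.94%) and 336 (4.13%) at an unadjusted p under 0.05. No genotype effect was thus shown to be particular to the pallial progenitors.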

How the data were processed

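Single-cell RNA-Seq of sorted E18.5 cortical cells was analysed. The authors deposited the natural log of 1 plus each count scaled to 10000 per cell, for 16600 genes in 6562 cells. Cell Ranger 2.1, Seurat 2.3.0 and mm10 are named in the submitters' processing notes. Annotation, strand setting and cell filters were not given in the sources used here. Taken out of the log, 100% of values were whole multiples of the smallest in their cell (tolerance 0.001), which recovered the UMIs, 1258 to 14996 in a cell and 8205330 to 11742956 in a library. The prefix of a cell name gave its genotype but no replicate number.

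Counts per 10000 were averaged over the cells of a library and class, and libraries were the replicates. Each library is 1 fetus and litters are not stated. Permutation p-values compare these libraries alone. Those of limma draw a gene's spread toward that of genes of similar level, so they do not measure its own spread alone. Genotypes were compared with limma (trend) on log2(mean + 0.1) for genes with a mean of at least 0.1, adjusted by Benjamini-Hochberg, with calls at 0.05. Fold changes on this scale understate those of low genes. Differences between classes were tested with limma on the difference of log2 values per library, and shares with exact permutation tests. Non-cycling pallial cells met the rule with Top2a at 0, and cycling Dlx-positive cells had Top2a and Dlx1 or Dlx2. Descriptive comparisons kept genes with a mean over both classes of at least 0.1.

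Named genes were Setd5, the genes of the rule, genes called, the 10 of lowest p among the others, the 10 of largest fold over each compared class and, from marker lists, the most abundant, together with all genes the study named for its Dlx-positive cluster. Genes outside this rule (the 10 leading genes on each side of the Eomes split, Cenpf, Clspn, Hells, Hes1, Hopx, Mki67, Pcna, Cd24a, Ptprc and the subpallial genes) were chosen after values were seen. The progenitors, lists and tests were chosen with earlier results of these data known. The alternatives were other pseudocounts, no filter, summed UMIs, means of log values, thinning to 3000 UMIs, removal of doublets, of cells with 1 pallial UMI or of cells with other subpallial UMIs, equal weights for Eomes or cell cycle classes, and each library left out. Coordinates are from GENCODE M21 on GRCm38 and promoters from RefSeq. Software was Python 3.11.15, scanpy 1.11.5, scipy 1.17.1, R 4.3.3 and limma 3.58.1. The limma comparison of genotypes in the progenitors was also run on simulated libraries with an assumed dispersion of 0.02. It called 30 of 100 genes with an absolute log2 fold change of 1, 82 of 100 with 2 and 1 of 7929 with 0. Most changes of the first size were thus missed.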

Additional observations from a re-analysis of the deposited data

Results flagged for a closer look

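Of 19 gene lists, only the S-phase list had a difference between progenitors with and without Eomes whose sign separated all libraries by genotype. The summed level with Eomes minus that without was 9.14 counts per 10000 in WT3, 3.07 in WT6, -13.6 in Het5 and -10.9 in Het9. The mean of Setd5+/- minus that of Setd5+/+ was -18.4 counts per 10000. This difference between genotypes was not tested, and it was noticed among the 19 lists after their values were seen. Genotype means had opposite signs for other lists too. For G2 and mitosis they were -21.9 in Setd5+/+ and 15.4 in Setd5+/-, where Het5 (-5.39) and Het9 (36.2) differed in sign.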

How the results depend on the processing

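The 7 genes called between genotypes became 13 with both Eomes classes weighted alike, 11 on means of the deposited log values and 2 with the rule applied after thinning to 3000 UMIs. Leaving out 1 library gave 3 (Het9), 8 (Het5), 12 (WT3) and 47 (WT6), from 3 to 47. The other alternatives gave 5 to 10. The 2 tests of differences between classes called 0 genes under every alternative run.
The difference in the Eomes share was -4.73 points after thinning, and that in the S-phase share 0.0592. For single genes, 352 of the values under alternatives kept their direction and side of the threshold, 23 passed it, 19 lost it and 11 turned. The last were Abracl (-0.042 with Eomes classes weighted alike, -0.063 on log means, -0.30 to 0.40 without 1 library), Cdkn1c (0.54 with S and G2/M classes weighted alike, 0.0048 on log means, -0.51 to 0.14 without 1 library), Nr2f1 (-0.032 without cells with other subpallial UMIs, -0.10 to 0.23 without 1 library), Gm8797 (-2.87 to 0.11 without 1 library), Nnat (-0.018 to 0.45 without 1 library) and Zic4 (0.037 after thinning). The cause was not tested. Without 1 library a genotype has a single fetus, assumed to vary like the others. No paired analysis was possible because the columns of the table carry no replicate numbers. Depth limits genes near 0.1 counts per 10000, which is less than 1 UMI in a cell of median depth.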

Other observations

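A further 83 cells had Top2a but none of Eomes, Neurog2, Pax6, Dlx1 and Dlx2, with 16, 32, 21 and 14 in WT3, WT6, Het5 and Het9 and a median of 6532 UMIs. Their radial glia list summed to 63.0, 79.8, 79.1 and 88.4 counts per 10000 in the 4 libraries and their G2 and mitosis list to 55.1, 76.1, 55.5 and 61.0. The glial progenitor list summed to 1.46, 3.35, 0.673 and 1.97, and the list of 5 melanocyte genes to 4.74, 2.44, 0.0732 and 0. In WT6 their red cell list summed to 287 counts per 10000, against 5.29 to 13.8 in the other libraries. These cells were left out of the pallial progenitors by the rule, and they were too few per library for a comparison of genotypes.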
